A study of Homo sapiens with 8 samples.

Results

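The E2F transcription factors and the retinoblastoma (RB) family were followed in HCT116, a long-established line from a human colon carcinoma. The cells received siRNA against TAF3 or a control siRNA, followed or not by DNA damage. The genes were taken by symbol: E2F1 to E2F8, RB1 and RBL1, 10 of 18852 genes that had a probe of a single symbol on the array. All 10 had a probe, 12 probes in total, since E2F6 and RBL1 had 2 each. RNA was measured on 8 Illumina HumanHT-12 v3 arrays, 2 in each of 4 groups. Cells were transfected with a non-targeting control siRNA or with one directed at TAF3, a TFIID component whose PHD finger binds histone H3 trimethylated at lysine 4. After 48 hours they were left untreated or received 0.5 µM doxorubicin, a topoisomerase II poison that breaks DNA, for 24 hours. Any depletion of TAF3 was therefore transient, and it was hardly measurable on these arrays, as described below. The labels name no siRNA sequence or second siRNA, and all groups share 1 cell line. The untreated arrays carry the replicate numbers 1 and 3 and the doxorubicin arrays 2 and 4, and pairs of values below are given in that order. No replicate number occurs with both treatments. An effect of doxorubicin and of whatever the number marks therefore cannot be told apart. Whether the replicates came from separate cultures is not stated in the labels, so the p-values reflect the spread between arrays, and that spread may be technical.

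E2F factors switch on the genes of DNA replication as cells enter S phase, and the RB family of pocket proteins holds them in check until cyclin-dependent kinases phosphorylate the pocket proteins. E2F1, E2F2 and E2F3 are the activating factors bound by RB1, while E2F4 and E2F5 work mainly as repressors with the pocket proteins RBL1 (p107) and RBL2 (p130). E2F6 represses without any pocket protein, as part of a variant Polycomb complex, and E2F7 and E2F8 repress without a DP partner. After DNA damage, p53, which is intact in HCT116 cells, induces the kinase inhibitor CDKN1A (p21), and the pocket proteins then stay active and the cell cycle halts. In HCT116 cells, doxorubicin is widely used to set off this p53 response.

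The arrays had between 17428 and 19533 probes above background, and all had the same median signal of 73.9. Background was read for each array at a signal of 81.3 to 87.3. The targeted gene was hardly measurable: 1 TAF3 probe lay below background on all 8 arrays. Its other probe gave 78.1 and 81.4 in untreated control cells, 89.3 and 101.0 in control cells with doxorubicin, 62.7 and 76.0 with TAF3 siRNA, and 76.6 and 67.3 with TAF3 siRNA and doxorubicin. All TAF3 siRNA arrays lay below background, as did both untreated control arrays, so only the doxorubicin groups give a difference, at least 1.1-fold lower with TAF3 siRNA (adjusted p = 0.167), and a knockdown without doxorubicin could not be checked. All 6 markers of colon epithelium, EPCAM and KRT19 among them, were above background on 8 arrays. Of 6 markers of other cells, PTPRC and COL1A2 were above background on 0 arrays and COL1A1 and PECAM1 on 8. The summed signal of these 6 ran from 599 to 660 outside the control cells with doxorubicin, where it was 688 and 764, and its part in the results below was not tested. In bulk RNA, a change in the share of cells in a cycle phase and a change per cell cannot be told apart.

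A probe's deposited signal is a linear brightness that says nothing of one gene's level relative to another's, so levels are compared only between groups for the same probe. Changes are given as log2 differences ± standard error (SE) from 1 limma fit of all 8 arrays after background correction and quantile normalization. A change was called where the Benjamini-Hochberg adjusted p over all 16348 features fell under 0.05. Where a gene had more than 1 probe detected on at least 2 arrays, the brightest stood for the gene. Of the 12 member probes, 11 passed that detection filter, and 9 of the 10 members had a representative probe above background on every array. The exception was E2F1.

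Among the 10 members, doxorubicin raised 3 (E2F2, E2F7 and RB1) and lowered 0 in control siRNA cells, where 17.1% of all features were called, 9.08% higher and the other 1308 features lower. In TAF3 siRNA cells doxorubicin raised 0 and lowered 1, E2F2, against 4.65% of all features called, 2.07% higher and 2.58% lower. TAF3 siRNA without doxorubicin changed 0 members, with 0.00% of features called in limma. At an unadjusted p under 0.05 there were 3 members (E2F5, RB1 and RBL1) and 1973 features in that comparison. With doxorubicin, TAF3 siRNA raised E2F5 and lowered E2F2, 2 of 10 against 13.8% of features called, 6.53% higher and 7.28% lower. The difference between the siRNAs in the doxorubicin effect, tested as an interaction, passed for 0 members and for 0.0367% of features, which is 6 features, with 0.0122% higher and 0.0245% lower. Of the members, 5 had an unadjusted p under 0.05 for it, as had 2424 features. The arrays of both groups did not overlap for 9 of 10 members with doxorubicin in control siRNA cells (63.6% of all features) and for 5 in TAF3 siRNA cells (47.7%). The same held for 3 members with TAF3 siRNA alone (40.9%) and for 7 with TAF3 siRNA under doxorubicin (62.1%). The members' median log2 change was 0.13, -0.22, 0.15 and -0.15 in the 4 pairwise comparisons, beside -0.02, 0.01, 0.01 and 0.03 over all features.

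**Figure D1:**
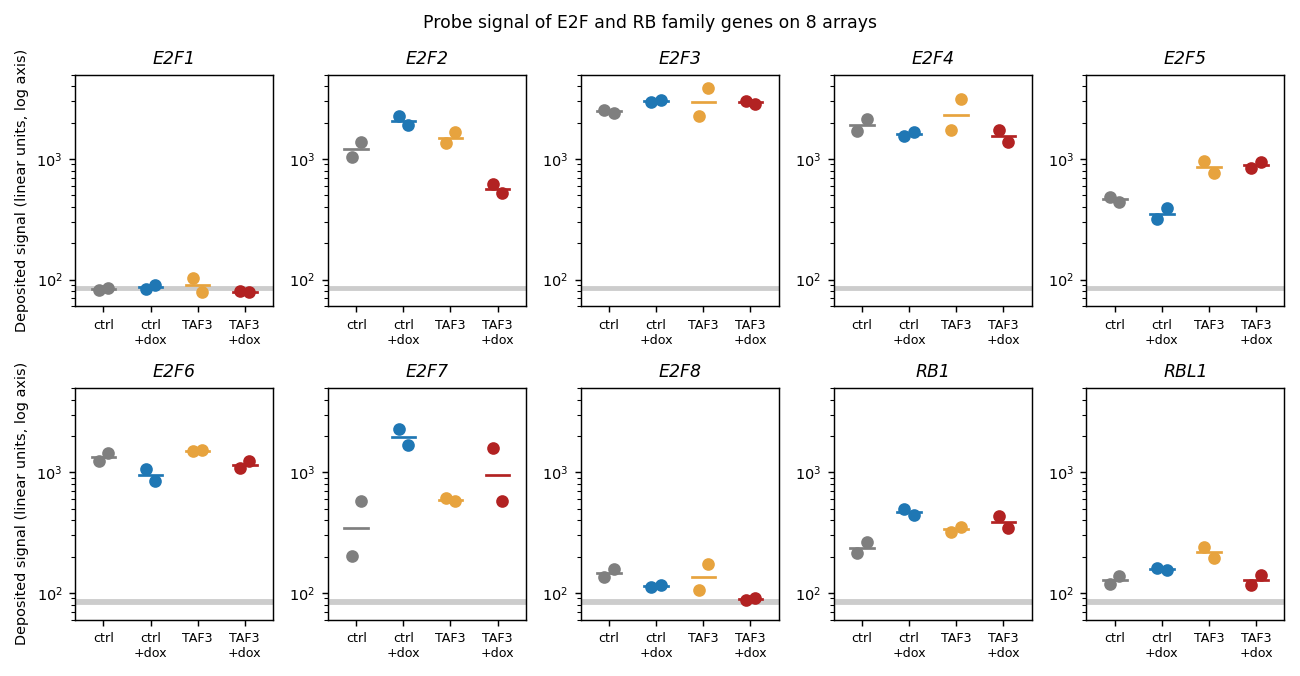
Deposited signal (linear units on a log axis) of each member's representative probe on the 8 arrays, by group: control siRNA (ctrl), control siRNA with doxorubicin, TAF3 siRNA, and TAF3 siRNA with doxorubicin. Points are arrays, short lines are geometric means of 2 arrays and the grey band spans the background thresholds of 81.3 to 87.3. E2F2 is lowest with TAF3 siRNA and doxorubicin, E2F5 is higher in both TAF3 siRNA groups, and E2F1 lies near background, above it on 4 of 8 arrays.

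**Figure D2:**
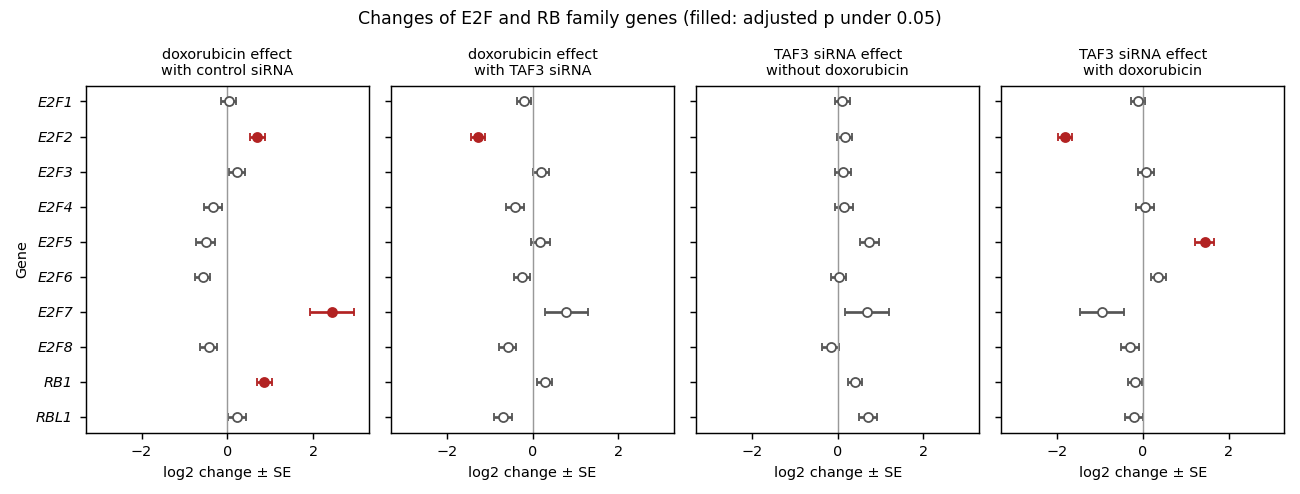
Log2 change with its standard error for each member in the 4 pairwise comparisons, filled where the adjusted p is under 0.05. E2F2 changed in opposite directions with doxorubicin in the 2 siRNAs, at 0.70 and -1.27, and E2F7 has the widest error.

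Windows around the transcription start are shown for 3 members, of which RBL1 passed in no comparison. E2F2 and RBL1 are the members whose doxorubicin arrays lay on opposite sides of the untreated arrays in the 2 siRNAs, as 5.52% of all features did, and E2F7 had the largest change. Each window holds 250 bases before and 50 after the start, from RefSeq on GRCh38.p14, on the gene's own strand. Capitals mark a match to any of the E2F motifs TTTCCCGC, TTTGGCGC, TTTCGCGC or TTTGCCGC on either strand. The windows lie at chr1:23531184-23531483 (minus strand) for E2F2, chr20:37095948-37096247 (minus strand) for RBL1 and chr12:77065520-77065819 (minus strand) for E2F7.
E2F2: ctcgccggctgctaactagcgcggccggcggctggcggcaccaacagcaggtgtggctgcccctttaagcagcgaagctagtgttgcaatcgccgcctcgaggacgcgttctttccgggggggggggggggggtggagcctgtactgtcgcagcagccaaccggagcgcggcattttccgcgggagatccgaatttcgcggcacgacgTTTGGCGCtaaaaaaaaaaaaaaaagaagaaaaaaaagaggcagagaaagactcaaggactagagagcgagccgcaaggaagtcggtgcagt
RBL1: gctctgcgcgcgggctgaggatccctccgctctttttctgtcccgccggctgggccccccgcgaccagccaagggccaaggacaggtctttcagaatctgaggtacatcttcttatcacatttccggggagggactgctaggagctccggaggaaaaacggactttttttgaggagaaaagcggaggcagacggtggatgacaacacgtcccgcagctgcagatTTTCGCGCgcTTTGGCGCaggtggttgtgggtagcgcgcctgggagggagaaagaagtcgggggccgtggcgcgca
E2F7: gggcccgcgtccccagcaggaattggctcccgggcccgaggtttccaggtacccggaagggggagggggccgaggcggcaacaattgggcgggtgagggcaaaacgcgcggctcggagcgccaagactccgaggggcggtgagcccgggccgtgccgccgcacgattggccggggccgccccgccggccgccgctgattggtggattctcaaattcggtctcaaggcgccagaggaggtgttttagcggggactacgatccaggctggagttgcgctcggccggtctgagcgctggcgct
The E2F2 window holds TTTGGCGC from 42 to 35 bases before the start. That of RBL1 holds TTTCGCGC from 26 to 19 and TTTGGCGC from 16 to 9 bases before it, and the E2F7 window holds none of these letters. E2F1 has TTTGGCGC from 20 to 13 bases before its start and TTTGCCGC on the other strand from 33 to 26 bases before it. E2F3 has TTTCCCGC on the other strand from 53 to 46 bases before its start. No match was found in the windows of E2F4 and E2F6. At least 1 of the motifs occurs in 3.31% of 35116 RefSeq windows of this length. A match is a stretch of letters and not a shown binding site. RB1 is left out because its window in the table belongs to a transcript that starts inside the gene, and E2F5 and E2F8 were not analysed here for motifs.

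E2F2, an activating factor bound by RB1, passed the test in 3 of the 4 pairwise comparisons, more than any other member. Its signals were 1042 and 1388 in untreated control cells, 2251 and 1903 in control cells with doxorubicin, 1347 and 1663 with TAF3 siRNA, and 615.5 and 518.5 with TAF3 siRNA and doxorubicin. Both doxorubicin arrays lay above all untreated arrays with control siRNA and below all untreated arrays with TAF3 siRNA. E2F2 rose with doxorubicin by 0.70 ± 0.17 in control siRNA cells (1.62-fold, adjusted p = 0.0272) and fell by 1.27 ± 0.17 on the log2 scale in TAF3 siRNA cells (2.42-fold, adjusted p = 0.00947). With doxorubicin it was 3.51-fold lower in TAF3 siRNA than in control siRNA cells (log2 change -1.81 ± 0.17, adjusted p = 0.00325). Without doxorubicin the log2 change with TAF3 siRNA was 0.16 ± 0.17 (adjusted p = 0.772), and the arrays of these groups, which are neighbours in the order of levels, overlapped. The difference between the 2 doxorubicin effects was -1.97 ± 0.25, with a 95% interval of -2.53 to -1.41, and just missed the threshold (adjusted p = 0.0524). That difference passed in 3 of 8 other settings, which were no detection filter (adjusted p = 0.0389), every kept probe tested (0.0477) and a gene's probes averaged (0.0418). It did not pass in the other 5, where the adjusted p reached 0.0951. With 1 array left out it passed in 2 of 8 fits, without replicate 2 of TAF3 siRNA with doxorubicin (0.0207) and without replicate 1 of untreated TAF3 siRNA (0.0374). In the other 6 fits the adjusted p reached 0.441, without control doxorubicin replicate 2, and over the 8 fits the value ran from -2.14 to -1.80.

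Single arrays decided several of the E2F2 calls. The rise in control siRNA cells was not called without untreated replicate 1 (log2 change 0.53, adjusted p = 0.158), without doxorubicin replicate 2 (0.56, adjusted p = 0.218) or without doxorubicin replicate 4 (0.83, adjusted p = 0.0708). The fall in TAF3 siRNA cells was not called without doxorubicin replicate 2 (-1.33, adjusted p = 0.0591) or in a fit of those 2 groups alone (-1.27, adjusted p = 0.0591). The difference between siRNAs under doxorubicin was not called without control doxorubicin replicate 2 (-1.67, adjusted p = 0.0783). Leaving out any array kept the direction of these 3 changes.

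E2F3, the activating factor needed for entry into S phase, did not pass in any comparison. It gave 2543 and 2400 untreated and 2935 and 3053 with doxorubicin in control siRNA cells, then 2277 and 3848 untreated and 3041 and 2844 with doxorubicin in TAF3 siRNA cells. Untreated TAF3 siRNA arrays spanned all the others, and the group means differed by at most 0.23 ± 0.19 in the comparisons tested. Its direction was unsettled in TAF3 siRNA cells, with 0.19 for doxorubicin turning to -0.01 without further normalization or with median centring. E2F1, the activating factor that can also induce apoptosis genes, was at the limit of detection. Its probe gave 81.9 and 84.6, then 83.0 and 90.7 in control siRNA cells without and with doxorubicin. It gave 102.6 and 78.9, then 80.2 and 78.2 in TAF3 siRNA cells. It was detected on 4 of 8 arrays, and with TAF3 siRNA and doxorubicin both arrays lay below background. Untreated TAF3 siRNA cells had 1 array above background and 1 below, which overlapped the doxorubicin arrays, so no fold is given between these groups (adjusted p = 0.559). Both control arrays with doxorubicin were above background, at least 1.02-fold over TAF3 siRNA cells with doxorubicin (adjusted p = 0.707).

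E2F5, which represses with the pocket proteins RBL1 and RBL2, was the member that TAF3 siRNA raised. Signals of 480.7 and 442.9 in untreated control cells and 317.2 and 390.6 in control cells with doxorubicin stood against 951.7 and 757.2 with TAF3 siRNA and 833.8 and 937.2 with TAF3 siRNA and doxorubicin. All 4 TAF3 siRNA arrays lay above all 4 control siRNA arrays, and the 2 TAF3 siRNA groups overlapped each other. With doxorubicin, E2F5 was 1.44 ± 0.22 log2 units (2.71-fold) higher in TAF3 siRNA cells (adjusted p = 0.00836). The corresponding value without doxorubicin was 0.74 ± 0.22 (1.67-fold), which had an unadjusted p of 0.00751 and an adjusted p of 0.286. Doxorubicin itself gave -0.51 ± 0.22 with control siRNA (adjusted p = 0.142) and 0.18 ± 0.22 with TAF3 siRNA (adjusted p = 0.686), and the difference of these effects was 0.69 ± 0.31 (adjusted p = 0.336). The call under doxorubicin was lost without control doxorubicin replicate 2 (1.29, adjusted p = 0.119) or 4 (1.58, adjusted p = 0.0552), and without TAF3 siRNA doxorubicin replicate 4 (1.30, adjusted p = 0.0628).

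E2F4, the most widely expressed repressor of the family, passed in no comparison. Its signals were 1689 and 2146, then 1535 and 1657 with doxorubicin in control siRNA cells. In TAF3 siRNA cells they were 1725 and 3131, then 1727 and 1392. A single array, untreated TAF3 siRNA replicate 3, stood above the rest. The doxorubicin values of -0.33 ± 0.21 (adjusted p = 0.333) and -0.42 ± 0.21 (adjusted p = 0.303) had the same sign with both siRNAs. Its log2 change with TAF3 siRNA under doxorubicin was 0.05 ± 0.21 and turned to -0.04 without further normalization or with median centring.

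E2F6, the pocket-independent repressor, had signals of 1232 and 1430 untreated and 1058 and 853.5 with doxorubicin in control siRNA cells. The TAF3 siRNA signals were 1504 and 1514 untreated, and 1086 and 1232 with doxorubicin. With either siRNA the deposited signals were lower on both doxorubicin arrays, though the TAF3 siRNA groups overlapped after normalization. The fitted changes were -0.58 ± 0.18 with control siRNA (adjusted p = 0.0585) and -0.25 ± 0.18 with TAF3 siRNA (adjusted p = 0.494). Fitted on the 2 control siRNA groups alone, E2F6 passed (adjusted p = 0.0346). A second E2F6 probe was detected on 2 arrays, at signals of 68.0 to 88.1, and adds no usable difference.

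E2F7, a repressor that acts without a DP partner and is known as a p53 target gene, had the largest change of the family. It gave 203.4 and 578.6 in untreated control cells and 2285 and 1679 with doxorubicin. TAF3 siRNA cells gave 607.8 and 576.5 untreated, then 1583 and 572.9 with doxorubicin. With control siRNA the doxorubicin arrays lay far above both untreated arrays, whereas with TAF3 siRNA 1 doxorubicin array was high and the other was below both untreated arrays in deposited signal. After normalization that array lay between them, at a log2 level of 9.28 beside 9.02 and 9.32. E2F7 rose with doxorubicin by 2.43 ± 0.51 (5.4-fold, 95% interval 1.28 to 3.58, adjusted p = 0.014) in control siRNA cells. The change with TAF3 siRNA was 0.79 ± 0.51 (adjusted p = 0.422), and it ran from 0.11 without doxorubicin replicate 2 to 1.47 without doxorubicin replicate 4. The difference between these effects was -1.64 ± 0.72, with an unadjusted p of 0.0487 and an adjusted p of 0.335. Among doxorubicin-treated cells TAF3 siRNA gave -0.95 ± 0.51 (adjusted p = 0.246). The rise in control siRNA cells lost its call without untreated replicate 1 (1.70, adjusted p = 0.084), without doxorubicin replicate 2 (2.19, adjusted p = 0.131) or without doxorubicin replicate 4 (2.67, adjusted p = 0.0624).

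E2F8, the partner of E2F7 in repression, had signals close to background. They were 135.2 and 159.1, then 111.6 and 116.3 with doxorubicin in control siRNA cells. With TAF3 siRNA they were 106.5 and 174.6, then 87.1 and 90.3 with doxorubicin, the lowest group. The doxorubicin changes were -0.44 ± 0.20 with control siRNA (adjusted p = 0.174) and -0.58 ± 0.20 with TAF3 siRNA (adjusted p = 0.139). In both siRNAs the doxorubicin arrays lay below the untreated ones. Without untreated TAF3 siRNA replicate 1, the second of these values was -0.86 and passed (adjusted p = 0.0255).

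RB1, the founding pocket protein and a tumour suppressor, rose with doxorubicin in control siRNA cells. Its signals went from 212.2 and 266.0 to 492.4 and 442.7 there, and stood at 319.2 and 354.0 untreated and 436.4 and 341.8 with doxorubicin in TAF3 siRNA cells. The control groups lay at the ends of the order, with both TAF3 siRNA groups between them. The change in control siRNA cells was 0.86 ± 0.17 (1.82-fold, 95% interval 0.48 to 1.24, adjusted p = 0.0113). The corresponding value with TAF3 siRNA was 0.28 ± 0.17 (adjusted p = 0.40), and the difference of the 2 was -0.58 ± 0.24 (adjusted p = 0.31). Untreated TAF3 siRNA cells had a value 0.40 ± 0.17 above untreated control cells, with an unadjusted p of 0.0411 and an adjusted p of 0.399. The RB1 call was lost without untreated control replicate 1 (0.71, adjusted p = 0.076), without control doxorubicin replicate 2 (0.77, adjusted p = 0.118) and without control doxorubicin replicate 4 (0.95, adjusted p = 0.0526).

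RBL1, or p107, a pocket protein that accumulates in cycling cells, passed in no comparison. Its detected probe gave 118.1 and 137.0, then 161.6 and 155.4 with doxorubicin in control siRNA cells. It gave 241.0 and 195.3, then 115.8 and 142.0 with doxorubicin in TAF3 siRNA cells. Untreated TAF3 siRNA arrays were the highest of the 8, and the doxorubicin arrays lay above the untreated ones with control siRNA and below them with TAF3 siRNA. These doxorubicin effects were 0.22 ± 0.21 (adjusted p = 0.516) and -0.70 ± 0.21 (adjusted p = 0.0918), and differed by -0.92 ± 0.29 (adjusted p = 0.20). The value for TAF3 siRNA without doxorubicin was 0.71 ± 0.21, with an unadjusted p of 0.00734 and an adjusted p of 0.283. A second RBL1 probe lay below background on every array, between 68.0 and 82.7.

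RBL2, or p130, the pocket protein of resting cells, was measured among the binding partners. Its signals were 245.6 and 358.9, then 530.9 and 590.1 with doxorubicin in control siRNA cells. TAF3 siRNA cells gave 398.2 and 314.8, then 623.3 and 533.7. In both siRNAs the doxorubicin arrays lay above the untreated arrays. RBL2 rose by 0.81 ± 0.23 with control siRNA (adjusted p = 0.0401), and its change of 0.78 ± 0.23 with TAF3 siRNA had an adjusted p of 0.0894. The difference was -0.03 ± 0.32, with a 95% interval of -0.76 to 0.69. The RBL2 call was lost without untreated control replicate 1 and without control doxorubicin replicate 2 or 4, with values from 0.556 to 1.07 and an adjusted p of up to 0.226. TFDP1, the main dimer partner of E2F1 to E2F6, gave 5941 and 6345, then 6109 and 6974 in control siRNA cells. It gave 6150 and 7361, then 5012 and 5183 in TAF3 siRNA cells, and its largest pairwise change was -0.25 ± 0.15 (adjusted p = 0.283) for TAF3 siRNA with doxorubicin, beside -0.32 ± 0.21 for the interaction (adjusted p = 0.523). A second TFDP1 probe gave 5236 and 6802 untreated and 3438 and 3528 with doxorubicin in TAF3 siRNA cells. When every kept probe was tested, that doxorubicin change was -0.60 ± 0.15 (adjusted p = 0.054). For the first probe the same comparison gave -0.21 ± 0.15 in the main fit (adjusted p = 0.47), so the probes differ in size there but neither passed. For TAF3 siRNA with doxorubicin the second probe gave -0.24 ± 0.15, close to the first. TFDP2, the second partner, ran from 265.6 to 454.2 and passed in no comparison, with pairwise log2 changes of 0.11 to 0.22. Of the 10 measured binding partners and MuvB core genes, 2 rose with doxorubicin in control siRNA cells (RBL2 and LIN37), where 9.08% of all features rose. Beside 2.58% of all features that fell, 1 of these genes, LIN9, fell in TAF3 siRNA cells. Of those, LIN9 lost its call (adjusted p of up to 0.12) when any of the 8 arrays was left out, and LIN37 lost it (adjusted p of up to 0.262) without any 1 of the 4 control siRNA arrays.

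For each member that changed, the 3 named genes nearest in pattern were found over the 8 arrays, as the smallest root mean square difference of log2 signal after each gene was centred on its own mean. The search covered 12249 other genes, and the resulting points share the same arrays, so no test is attached. E2F2, whose own spread over the arrays was 0.67 log2 units, was nearest to PTTG3P at 0.152, C9orf40 at 0.168 and POLQ at 0.194. PTTG3P is a processed copy of PTTG1, and the array may not tell them apart. POLQ encodes the DNA polymerase of end joining. For E2F5, with a spread of 0.60, the nearest were HAPSTR1 at 0.11, CNOT4 at 0.12 and INTS9 at 0.147. CNOT4 encodes an E3 ligase of the CCR4-NOT deadenylase complex, and INTS9 a subunit of Integrator. E2F7 varied most, by 1.05, and lay nearest to ZFP90 at 0.259, ELAPOR1 at 0.284 and COBLL1 at 0.363. RB1, with a spread of 0.34, was nearest to CBR4 at 0.067, BRPF3 at 0.081 and ZNF416 at 0.085.

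**Figure D3:**
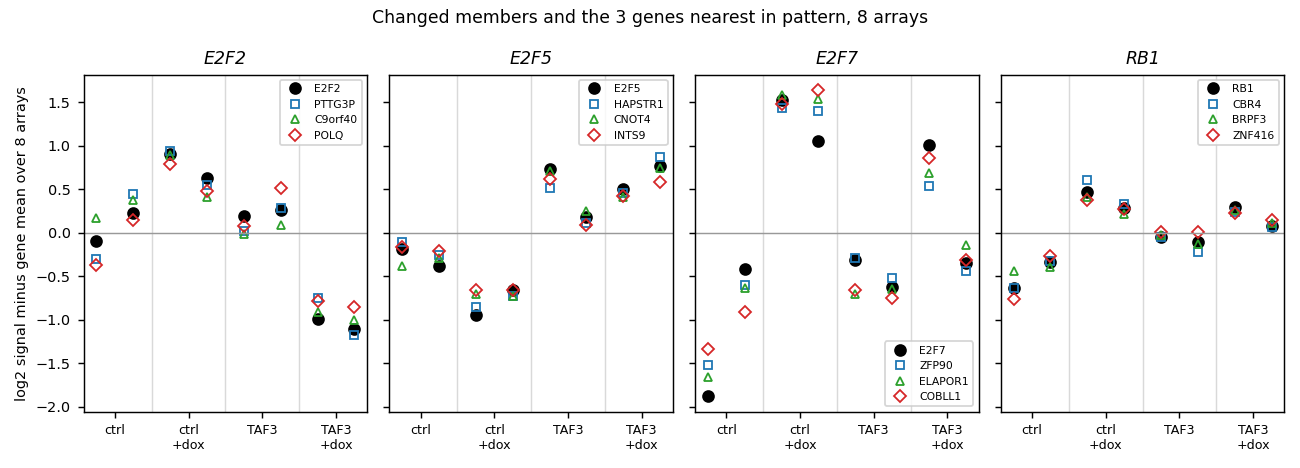
Centred log2 signal of the 4 members that changed (black) and of the 3 genes nearest to each in pattern (open symbols), with 1 point per array and the groups in the order control siRNA, control siRNA with doxorubicin, TAF3 siRNA, and TAF3 siRNA with doxorubicin. The E2F7 panel shows replicate 2 of TAF3 siRNA with doxorubicin high, at 1.01 for E2F7, and replicate 4 low, at -0.35, in all 4 genes alike in order.

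Kinases and inhibitors that set the phosphorylation of the pocket proteins were counted next. Of 14 measured, 3 rose and 2 fell with doxorubicin in control siRNA cells, and 2 rose and 1 fell in TAF3 siRNA cells. Over all features, 17.1% and 4.65% were called in these comparisons. CDKN1A, the p53-induced inhibitor p21, went from 6982 and 6102 to 28392 and 31800 with control siRNA and from 7266 and 5864 to 32362 and 26645 with TAF3 siRNA. It rose by 2.28 ± 0.21 (adjusted p = 0.00153) and 2.23 ± 0.21 (adjusted p = 0.00421), and the difference of -0.06 ± 0.29 was not called (adjusted p = 0.954). A second CDKN1A probe, when every kept probe was tested, rose by less, 0.72 ± 0.18 (adjusted p = 0.0256) and 0.89 ± 0.18 (adjusted p = 0.0267). CDKN2B, the inhibitor p15, rose by 1.57 ± 0.21 and 1.67 ± 0.21. SKP2, the F-box protein that marks p27 for destruction, fell by 1.61 ± 0.27 and 1.63 ± 0.27 on the log2 scale. CDKN2A, the p16 and ARF locus, changed by -1.26 ± 0.23 with control siRNA (adjusted p = 0.00833) and gave -0.72 ± 0.23 with TAF3 siRNA (adjusted p = 0.109). CCND3, the D-type cyclin D3 that activates CDK4 and CDK6, rose in control siRNA cells, from 3124 and 3489 to 9736 and 6540, by 1.26 ± 0.24 (adjusted p = 0.00952). In TAF3 siRNA cells it went from 3032 and 3675 to 3713 and 2494, a change of 0.08 ± 0.24 (adjusted p = 0.892). The interaction, -1.18 ± 0.33 for CCND3 (adjusted p = 0.163), was called for 0 of the 14. Under doxorubicin TAF3 siRNA changed CCND3 alone among the 14, by -1.28 ± 0.24 (adjusted p = 0.0137), where 13.8% of all features were called. CDKN1A was called with either siRNA whichever array was left out. CCND3 lost both calls without control doxorubicin replicate 2, the first also without untreated control replicate 1 (adjusted p of up to 0.0965) and the second also without TAF3 siRNA doxorubicin replicate 4 (up to 0.136). CDKN2A and SKP2 lost theirs in control siRNA cells without control doxorubicin replicate 2 (up to 0.0942 and 0.0725), CDKN2A also without untreated control replicate 1. In TAF3 siRNA cells CDKN2B and SKP2 lost theirs without doxorubicin replicate 2 (up to 0.0569 and 0.0654), and SKP2 also without untreated replicate 3.

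Replication genes known as E2F targets were mostly lower with doxorubicin in TAF3 siRNA cells. Of 39 measured, doxorubicin raised 6 and lowered 4 in control siRNA cells (median log2 change 0.07) and raised 0 and lowered 21 in TAF3 siRNA cells (median -1.08), beside medians of -0.02 and 0.01 over all features. Of all features, 17.1% and 4.65% were called in these comparisons. TAF3 siRNA changed 0 of the 39 without doxorubicin (median 0.34, smallest adjusted p = 0.319). With it, TAF3 siRNA lowered 21 of them (median -0.82), where 7.28% of all features were lower. The difference between the doxorubicin effects was called for 0 of the 39, with a median of -1.17 and a smallest adjusted p of 0.0733. It was below 0 for 37 of 39, or 94.9%, where 47.4% of all features were below 0. TK1, thymidine kinase, went from 3526 and 4800 to 10203 and 7869 with control siRNA and from 2983 and 5936 to 1616 and 1332 with TAF3 siRNA. It rose by 1.12 ± 0.27 (adjusted p = 0.023) in the first and changed by -1.37 ± 0.27 (adjusted p = 0.0264) in the second. HELLS, a chromatin remodeller of S phase, rose by 0.97 ± 0.27 and changed by -1.42 ± 0.27 in the same comparisons (adjusted p = 0.0385 and 0.024). RRM1, the large subunit of ribonucleotide reductase, went from 5220 and 5943 to 12362 and 9990 with control siRNA, by 1.02 ± 0.16 (adjusted p = 0.00529). With TAF3 siRNA it went from 6685 and 7672 to 4946 and 4553, by -0.41 ± 0.16 (adjusted p = 0.195). CCNA2, cyclin A2, fell with both siRNAs, by 1.01 ± 0.21 (adjusted p = 0.0144) and by 2.39 ± 0.21 (adjusted p = 0.00421) on the log2 scale. CHEK1, the checkpoint kinase, fell likewise (log2 changes of -1.13 ± 0.22 and -1.69 ± 0.22), and PCNA, the sliding clamp, which is also a p53 target, rose in control siRNA cells by 1.07 ± 0.25 (adjusted p = 0.0218) and gave 0.26 ± 0.25 with TAF3 siRNA (adjusted p = 0.62). Their interaction values of -0.56 ± 0.31 for CHEK1 and -0.82 ± 0.36 for PCNA were not called (adjusted p = 0.444 and 0.335). ORC1, a subunit of the origin recognition complex, went from 465.9 and 575.8 to 172.0 and 153.0 with doxorubicin in TAF3 siRNA cells, by -1.58 ± 0.20 (adjusted p = 0.00932). MCM4, a subunit of the replicative helicase, fell there as well, from 3170 and 3802 to 1226 and 1341, by 1.29 ± 0.17 on the log2 scale (adjusted p = 0.00932). In control siRNA cells ORC1 gave -0.41 ± 0.20 (adjusted p = 0.20) and MCM4 -0.24 ± 0.17 (adjusted p = 0.384). POLA2, a subunit of DNA polymerase alpha, gave 1162 and 1102 in control cells with doxorubicin and 478.7 and 497.1 in TAF3 siRNA cells with doxorubicin, a change of -1.15 ± 0.20 (adjusted p = 0.0117). In that comparison the log2 change was -2.56 ± 0.27 for TK1, -1.72 ± 0.27 for HELLS and -1.13 ± 0.16 for RRM1, all called.

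**Figure D4:**
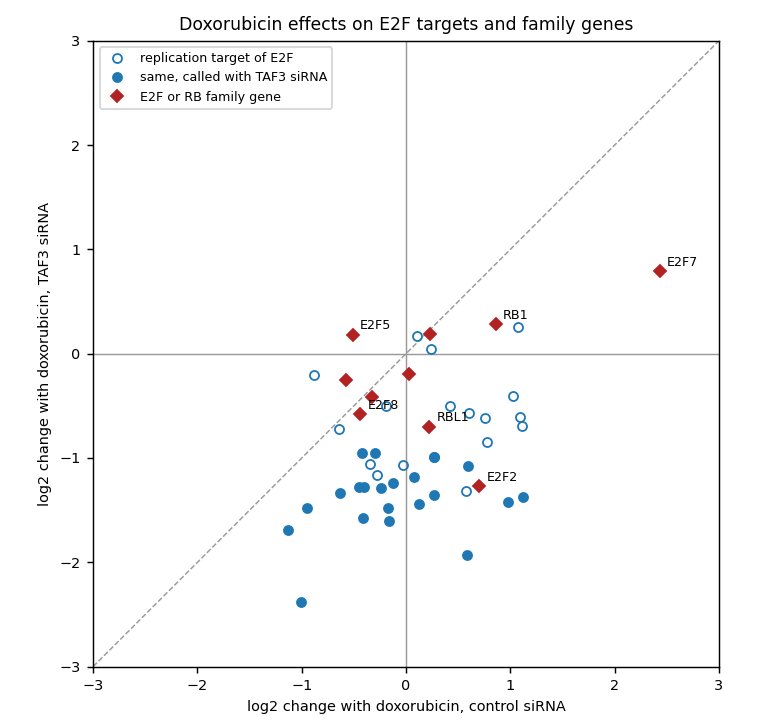
Log2 change with doxorubicin in control siRNA cells (horizontal) and TAF3 siRNA cells (vertical) for 39 replication targets of E2F (circles, filled where called with TAF3 siRNA) and the 10 members (diamonds). The dashed line marks equal change. Most circles, 37 of 39, lie below it, as does E2F2, at 0.70 and -1.27. The axes share no array.

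These counts leaned on single arrays, as did the counts over all features, whose ranges are given at the end. The drops below are therefore not particular to these genes. In a fit of the 2 TAF3 siRNA groups alone, 0 of all features were called for doxorubicin in place of 760. The 21 lowered with doxorubicin in TAF3 siRNA cells became 1 without TAF3 siRNA doxorubicin replicate 2, 4 without untreated TAF3 siRNA replicate 3, 11 without either control doxorubicin array, and 0 in a fit of those 2 groups alone, while the median stayed between -1.27 and -0.94. The 21 lowered by TAF3 siRNA under doxorubicin became 0 without control doxorubicin replicate 2, 2 without control doxorubicin replicate 4, 2 without TAF3 siRNA doxorubicin replicate 4 and 13 without TAF3 siRNA doxorubicin replicate 2. In control siRNA cells the 6 raised and 4 lowered became 0 and 0 without doxorubicin replicate 2, 1 and 0 without doxorubicin replicate 4, 1 and 2 without untreated replicate 1, and 4 and 0 without untreated replicate 3. For the interaction, some of these genes were called without untreated TAF3 siRNA replicate 1 or without TAF3 siRNA doxorubicin replicate 2. In these fits more of all features were called for it as well. Without control doxorubicin replicate 2, RRM1, CHEK1, CCNA2, PCNA, TK1 and HELLS all lost their calls in control siRNA cells (adjusted p of up to 0.24), and without replicate 4 all of these but RRM1. Untreated control replicate 1 ended those of PCNA, TK1 and HELLS, and untreated control replicate 3 those of CHEK1, CCNA2, PCNA and TK1. In TAF3 siRNA cells TK1, HELLS and CHEK1 lost theirs without doxorubicin replicate 2 (up to 0.11, 0.134 and 0.0591), TK1 and HELLS also without untreated replicate 3 or either control doxorubicin array, and TK1 without doxorubicin replicate 4. ORC1 and MCM4 lost theirs without doxorubicin replicate 2 of TAF3 siRNA (up to 0.0591 and 0.0641). The CCNA2 call in TAF3 siRNA cells held without each of the 8 arrays. For TAF3 siRNA under doxorubicin, the POLA2 and HELLS calls ended without either control doxorubicin array or TAF3 siRNA replicate 4 (up to 0.132 and 0.122). There RRM1 lost its call without control replicate 2 or TAF3 siRNA replicate 4 (up to 0.111), and TK1 without control replicate 2 (0.0884).

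Apoptosis genes known as E2F1 targets rose or did not pass with doxorubicin. Of 9 measured, 3 rose and 0 fell in each siRNA, with TP53INP1 and PMAIP1, which are also p53 targets, in both counts. Over all features, 9.08% rose with control siRNA and 2.07% with TAF3 siRNA. TP53INP1 went from 193.4 and 252.4 to 3210 and 3043 with control siRNA and from 303.1 and 275.1 to 2828 and 1434 with TAF3 siRNA, by 3.74 ± 0.28 and 2.91 ± 0.28, and kept its call without each array. APAF1, the scaffold of the apoptosome, rose by 2.35 ± 0.36 with control siRNA (adjusted p = 0.00473) and gave 1.17 ± 0.36 with TAF3 siRNA (adjusted p = 0.104). Its interaction, -1.18 ± 0.51, was not called (adjusted p = 0.334). APAF1 was lower with TAF3 siRNA under doxorubicin, at -1.28 ± 0.36 (adjusted p = 0.048), 1 of 9 in that comparison, where 7.28% of all features were lower. That call ended without any 1 of the control siRNA arrays or without TAF3 siRNA doxorubicin replicate 4 (adjusted p of up to 0.28), and the rise in control siRNA cells ended without doxorubicin replicate 2 (0.0679). PMAIP1 rose by 1.35 ± 0.23 and 1.18 ± 0.23, calls that ended without either control doxorubicin array (up to 0.0786) and without any 1 of the 4 doxorubicin arrays (up to 0.115). BBC3, the p53-induced death gene PUMA, passed with TAF3 siRNA and not with control siRNA. It went from 82.3 and 74.3, both below background, to 151.3 and 154.5 with TAF3 siRNA, at least 1.79-fold higher (adjusted p = 0.0227). With control siRNA it went from 104.1 and 86.8 to 120.8 and 154.4, a change of 0.43 ± 0.18 (adjusted p = 0.133), and the interaction was not called (adjusted p = 0.371). The BBC3 call ended without either TAF3 siRNA doxorubicin array or untreated TAF3 siRNA replicate 3 (up to 0.105).

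Chromatin partners of the family were measured as well. Of 9 measured genes of the E2F6 complex, 1 fell in each doxorubicin comparison and 8 were not called. With control siRNA it was CBX3 (-1.03 ± 0.23, adjusted p = 0.0182). With TAF3 siRNA it was PCGF6, the ring-finger subunit of the complex (-0.63 ± 0.14, adjusted p = 0.0432). For this list and those below, the background with doxorubicin was 16348 features. Of these, 1308 fell and 9.08% rose with control siRNA, and 2.58% fell with TAF3 siRNA. The PCGF6 call ended without any 1 of the 8 arrays (up to 0.151), and that of CBX3 without control doxorubicin replicate 2 or either untreated control array (up to 0.167). Only 3 of 6 germline genes silenced by E2F6 were measured, and 1, TUBA3D, fell in control siRNA cells, by 1.13 ± 0.32 on the log2 scale (adjusted p = 0.0422). Its probe may also read near-identical tubulin copies, and its call ended without any 1 of the control siRNA arrays (up to 0.23). Among 9 measured co-repressors of RB, SIN3A, the scaffold of a histone deacetylase complex, fell by 1.20 ± 0.16 on the log2 scale in control siRNA cells (adjusted p = 0.00296), whichever array was left out. SMARCA2, an ATPase of the SWI/SNF remodeller, rose there by 1.01 ± 0.21 (adjusted p = 0.015), and 7 of the 9 were not called. Under doxorubicin TAF3 siRNA raised the first and lowered the second, with SIN3A at 1.07 ± 0.16 (adjusted p = 0.00836) and SMARCA2 at -0.81 ± 0.21 (adjusted p = 0.0397). Over all features, 6.53% were higher and 7.28% lower there. This comparison shares the control doxorubicin arrays with the one before, with opposite sign, so opposite directions are partly built in. The interaction was called for 0 of the 9, with adjusted p = 0.124 for SIN3A (0.92 ± 0.23) and 0.384 for SMARCA2 (-0.62 ± 0.30). SUV39H1, the histone H3 lysine 9 methyltransferase, fell with doxorubicin in TAF3 siRNA cells by 1.15 ± 0.16 on the log2 scale (adjusted p = 0.00947). The other 8 of the 9 were not called there. The SMARCA2 rise ended without control doxorubicin replicate 2 or 4 or untreated control replicate 3 (up to 0.123), and the SUV39H1 fall without TAF3 siRNA doxorubicin replicate 2 (0.0693). Under doxorubicin, SIN3A lost its call without control doxorubicin replicate 2 or 4 or TAF3 siRNA replicate 4 (up to 0.10), and SMARCA2 without any 1 of the 4 doxorubicin arrays (up to 0.226).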

How the data were processed

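Expression was measured on 8 Illumina HumanHT-12 v3 arrays from 200 ng of total RNA each, with groups and replicate numbers taken from the sample titles. The values used are the authors' deposited intensity per probe on a linear scale. The submitters' processing notes name BeadStudio, and further steps are not given in the sources used here. Another deposited table has columns headed as detection p-values, which rise with the signal and were read as 1 minus p. As they carry no sample names, they served only to count the arrays detecting each probe, and 8 signal columns beside them stayed unused. The background of an array was the signal that separates probes detected on 0 from those detected on 8 arrays. Signals were corrected with normexp (offset 50), quantile normalized and log2 transformed. Detection at p under 0.05 was required on 2 or more arrays, which retained 20628 of 48803 probes. Of all probes 28098 had 1 gene symbol, 13 several and 20692 were not listed. Group means were fitted with limma 3.58.1 in R 4.3.3 (lmFit, eBayes; 4 residual and 4.98 prior degrees of freedom), with Benjamini-Hochberg adjustment over 16348 features in each of 5 comparisons. The fit was tested on simulated data in which 100 features were changed by 1 log2 unit and 100 by 2. All other features had equal group means there, and each feature had the same spread in every group. The real comparisons called between 0 and 2792 features, and their groups differed in spread. The rates that follow therefore need not hold for them. Of those changed by 1, the pairwise comparisons called 46 to 63 and the interaction called 14. Of those changed by 2, they called 89 to 92 and 79. A change that was not called, above all an interaction, is therefore not shown to be absent. The pooled SE can be too small for TAF3 siRNA groups, whose median SD was 0.151 untreated and 0.145 with doxorubicin, beside 0.127 and 0.101 with control siRNA.

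All 10 members were named with every probe. For each of 7 gene lists the rule took up to 4 called genes of smallest p per comparison, and RBL2, TFDP1, TFDP2, CDKN1A and TAF3 were always named. The members and lists were chosen with earlier results of these data known. Promoters are RefSeq entries on GRCh38.p14, found for 8 members. A bound for a probe below background on every array of a group uses the higher of the threshold and its own signal on each array. Alternatives changed normalization, background offset, detection filter, choice of probe, the groups fitted and a replicate block, and left out each array. The number of arrays limits the precision.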

Additional observations from a re-analysis of the deposited data

Results flagged for a closer look

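E2F2 and RBL1 were picked out because every doxorubicin array lay above the untreated arrays with control siRNA and below them with TAF3 siRNA, an arrangement that 5.52% of all features showed. For E2F2 the difference between the 2 doxorubicin effects was -1.97 on the log2 scale (adjusted p = 0.0524), and for RBL1 it was -0.92 (adjusted p = 0.20). Neither passed the interaction test of limma over all features.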

How the results depend on the processing

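Apart from leaving out arrays, each member's result in each comparison was refitted under each alternative that applied. Of these pairs of a result and an alternative, 409 kept direction and side of the threshold, 6 turned sign, 4 newly passed and 1 no longer passed. Most pairs concern results that were called in no setting, and the cause of the changes was not tested. Without further normalization, and equally with median centring, E2F3 turned to -0.01 for doxorubicin with TAF3 siRNA, and E2F3 and E2F4 to -0.03 and -0.04 for TAF3 siRNA with doxorubicin. The deposited signals already had the same median of 73.9 on every array, so these settings are close to each other. Fitting only the compared groups left 0 members called for doxorubicin with TAF3 siRNA, and the interaction had 1 (E2F2) with no detection filter, with every kept probe and with the mean of kept probes. Over all features, fitting only the compared groups gave 4201 calls in place of 2792 for doxorubicin with control siRNA and 0 in place of 760 with TAF3 siRNA. The 6 interaction calls became 1 without further normalization or with median centring, and 22 with no detection filter. Scaling moved the share of calls that were higher from 53.2% to 64.2% (no further normalization) and 63.2% (median centring) with control siRNA, and from 44.6% to 30.3% and 30.1% with TAF3 siRNA.

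Leaving out each array gave 0 to 3 members called for doxorubicin with control siRNA, 0 to 2 with TAF3 siRNA, 0 to 2 for TAF3 siRNA with doxorubicin, 0 to 0 without it and 0 to 1 for the interaction. Over all features the ranges were 268 to 3423, 36 to 1638, 3 to 3027, 0 to 314 and 0 to 324. Signs turned within these ranges of log2 change, for results not called in the full data: E2F1 -0.03 to 0.09 for doxorubicin with control siRNA; with TAF3 siRNA E2F1 -0.40 to 0.0028, E2F3 -0.06 to 0.44 and E2F5 -0.09 to 0.46. For TAF3 siRNA without doxorubicin they were E2F1 -0.09 to 0.32, E2F2 -0.01 to 0.33, E2F3 -0.13 to 0.38, E2F4 -0.17 to 0.44, E2F6 -0.08 to 0.13, E2F7 -0.05 to 1.42 and E2F8 -0.44 to 0.13. With doxorubicin E2F4 ran from -0.06 to 0.15. For the interaction they were E2F3 -0.29 to 0.21, E2F4 -0.40 to 0.21 and E2F8 -0.43 to 0.14.

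Whether the replicate numbers mark pairs could not be settled: only 2 pairs exist per treatment, and same-numbered arrays' deviations correlated at -0.0256 untreated and 0.212 with doxorubicin. With the number as a block, 0, 2 and 0 members were called for TAF3 siRNA without doxorubicin, with it and for the interaction, and 0, 2361 and 2 features. Signal over background limits E2F1 and E2F8.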
